A study of Homo sapiens with 6 samples.

Results

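The genes of MHC class I antigen presentation were examined in HK-2 cells, an immortalised line of human proximal tubular epithelial cells, after exposure to OX-LDL. The 9 genes were HLA-B, HLA-C, HLA-E, HLA-F, B2M, TAP1, TAP2, PSMB8 and PSMB9, each taken as the row of that gene name among the 58825 genes of the deposited table. OX-LDL is low-density lipoprotein that has been oxidised. Poly(A) RNA was sequenced from 3 Control libraries of untreated cells and 3 libraries of cells kept for 48 h with OX-LDL at 25 μg/ml. The paper's methods describe starvation in medium with little serum before OX-LDL was added, and neither the methods nor the labels say whether the Control cells were starved or how long they were kept. Starvation, time and OX-LDL therefore cannot be told apart in what follows. HK-2 is 1 line, and the labels do not say that the 3 libraries of a group came from separate cultures. The paper describes its experiments on cells as independent repeats, without saying this of the RNA-seq libraries, so each p-value measures the spread between these libraries, which may be technical.

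MHC class I molecules display short peptides from proteins made inside the cell to CD8+ T cells, and the same molecules hold back natural killer cells. Proteasomes cut the peptides, the TAP transporter moves them into the endoplasmic reticulum, and there they are loaded onto a heavy chain held by the light chain B2M. Interferons are known to raise most genes of this pathway, in kidney tubular cells as elsewhere, through interferon-stimulated response elements and related sites in their promoters, and HLA-E presents peptides cut from the leader sequences of the other heavy chains.

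Of the 9 genes, 1 rose and 0 fell in OX-LDL at an adjusted p-value under 0.05 (edgeR). The gene that rose was HLA-E, by 1.62-fold. Over the 19510 genes whose mean reached 0.1 FPKM (a fragment level per length of transcript that is scaled to the size of the library), 7.91% rose and 7.42% fell at that threshold, so that 1 of 9 is close to the background. The log2 fold change, always of OX-LDL over Control, was above 0 for 7 genes and below 0 for 2, with a median of 0.16 and a range from -0.11 to 0.70. Over all genes tested, the median was -0.0043 and 49.7% were above 0. By the rule for DEGs in the paper, a fold change above 2 or below 0.5 with an unadjusted p-value under 0.05, 0 of the 9 genes were DEGs, and 6.36% of all genes tested were.

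Sequences in front of the genes are shown because interferons are known to act through letters found there. RefSeq promoters (GRCh38.p14, from 250 bases before the start site to 50 after it) were found for 8 of the 9 genes, all but HLA-E, as 10 promoters in all. The core of the interferon-stimulated response element, searched on both strands as GAAA, any 2 bases and GAAA, was present in a promoter of HLA-F, B2M, TAP1, TAP2 and PSMB8, and in 1255 of all 35116 promoters (3.57%). The windows of 60 bases around these cores, each 5′ to 3′ on the strand of the gene, are the following, with the cores in capitals. Where a core lies on the other strand, it reads as TTTC, 2 bases and TTTC.
HLA-F, chr6:29723253-29723312, plus strand: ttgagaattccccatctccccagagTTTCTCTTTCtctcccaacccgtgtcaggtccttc
B2M, chr15:44711348-44711407, plus strand: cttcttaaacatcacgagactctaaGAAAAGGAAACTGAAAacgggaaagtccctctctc
TAP1, chr6:32853804-32853863, minus strand: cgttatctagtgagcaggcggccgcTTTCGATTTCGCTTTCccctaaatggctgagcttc
TAP2, chr6:32838763-32838822, minus strand: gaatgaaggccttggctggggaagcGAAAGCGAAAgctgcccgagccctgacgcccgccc
PSMB8, chr6:32844017-32844076, minus strand: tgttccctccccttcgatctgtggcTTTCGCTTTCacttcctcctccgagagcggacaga

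B2M and TAP1 each held 2 overlapping cores, and the other 3 held 1. The promoters of the classical heavy chains HLA-B and HLA-C held no run of these letters. The search took exact matches alone, so this does not show that the 2 promoters lack the element. The windows of 60 bases in their promoters that were most like that of HLA-F are shown beside it, with no capitals because no core was found.
HLA-B, chr6:31357300-31357359, minus strand: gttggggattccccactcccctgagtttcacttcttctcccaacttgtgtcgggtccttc
HLA-C, chr6:31272209-31272268, minus strand: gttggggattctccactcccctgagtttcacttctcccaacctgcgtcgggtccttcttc

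Set against the HLA-F window without gaps, 44 of 60 bases were identical in HLA-B and 30 of 60 in HLA-C. Such a count falls wherever bases are added or missing and the windows go out of step. It therefore does not rank how alike the promoters are. The gamma-activated site core, searched on both strands as TTCNNNGAA, was in a promoter of PSMB8 and of TAP1 and in 7.66% of all promoters, and the CCAAT box (CCAAT, both strands) was in 6 of the 8 genes and in 34.6% of all promoters. For each motif, a gene was counted if any of its promoters matched, while the shares are of single promoters. The 8 genes had 10 promoters, so the 2 kinds of count are not alike. The start sites of TAP1 and PSMB9 lie 488 bases apart on opposite strands of chromosome 6, at 32853704 and 32854192. A match describes the letters of a window only, and binding was not measured.

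Of the 9 genes, 8 lie in the major histocompatibility complex on chromosome 6, and B2M lies on chromosome 15. Positions are those of the authors' table on GRCh38, in which HLA-F (ENSG00000204642) spans chr6:29722775-29729351, HLA-E (ENSG00000204592) chr6:30489509-30494194, HLA-C (ENSG00000204525) chr6:31268749-31272105 and HLA-B (ENSG00000234745) chr6:31269491-31357179. Further along, TAP2 (ENSG00000204267) spans chr6:32821833-32838739, PSMB8 (ENSG00000204264) chr6:32840717-32844703, TAP1 (ENSG00000168394) chr6:32845209-32853978 and PSMB9 (ENSG00000240065) chr6:32844136-32859851. B2M (ENSG00000166710) spans chr15:44711487-44718877. HLA-E and B2M overlapped no other gene of the table. The long HLA-B entry covered 2615 bases of HLA-C on the same strand, and the PSMB9 entry covered all 8770 bases of TAP1 and 568 bases of PSMB8 on the opposite strand. Also on the opposite strand, HLA-F shared 2751 bases with HLA-F-AS1 (mean 1.39 FPKM) and 471 with RPL23AP1 (1.83 FPKM). HLA-B shared 1203 bases with RPL3P2 (5.29 FPKM) on the opposite strand. Heavy chain genes are also close copies of each other, and the sources used here do not say whether counting used the strand or how reads that match several genes were placed, so the split of reads between overlapping genes is uncertain.

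The depth of the libraries was 69334049 to 75701068 estimated counts in Control and 62561347 to 76797607 in OX-LDL. A read pair was taken to give about 4 of these counts. This was inferred because values of 4, 8 and 12 counts were 3.26, 2.95 and 2.13 times as frequent as the counts beside them. It would place the depth at 15640337 to 19199402 read pairs. All 9 genes passed the minimum level. At 4 counts per pair, HLA-F had the fewest pairs, 169 to 341 per library, and PSMB9 had 285 to 431. Leukocytes express these genes strongly, and 9 of 12 leukocyte markers, PTPRC among them, were below 0.2 FPKM in every library. The summed level of the 12 markers was 3.34 to 8.08 FPKM in Control, against 9.17 to 14.5 FPKM in OX-LDL, mostly CD68, which did not pass the test (log2 fold change 1.08, adjusted p = 0.0858, edgeR). Of 13 proximal tubule entries, 5 were below 0.2 FPKM in every library, with LRP2 at 0 counts in each, while PAX8 and KRT8 were expressed. Of the 8 tested, 1 rose and 2 fell, the latter PAX8 and one of the GGT1 entries, between which reads shifted from library to library. PAX8, a kidney transcription factor, fell (log2 fold change -1.23, adjusted p = 0.0182, edgeR), and KRT8, an epithelial keratin, rose (0.83, adjusted p = 0.0116, edgeR). In bulk RNA, a change in the number of cells of a type and a change in RNA per cell cannot be told apart, and the part of these markers in the results below was not tested.

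In Control, the order of the levels per length was B2M, HLA-B, HLA-E, HLA-C, PSMB8, TAP2, TAP1, PSMB9 and HLA-F, from 84.6 ± 3.13 FPKM for B2M to 2.14 ± 0.419 FPKM for HLA-F (SD, n = 3). No neighbours in this order overlapped across the Control libraries. In OX-LDL, the order of the means was unchanged. There the ranges of HLA-B and HLA-E overlapped, as did those of HLA-C and PSMB8.

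**Figure D1:**
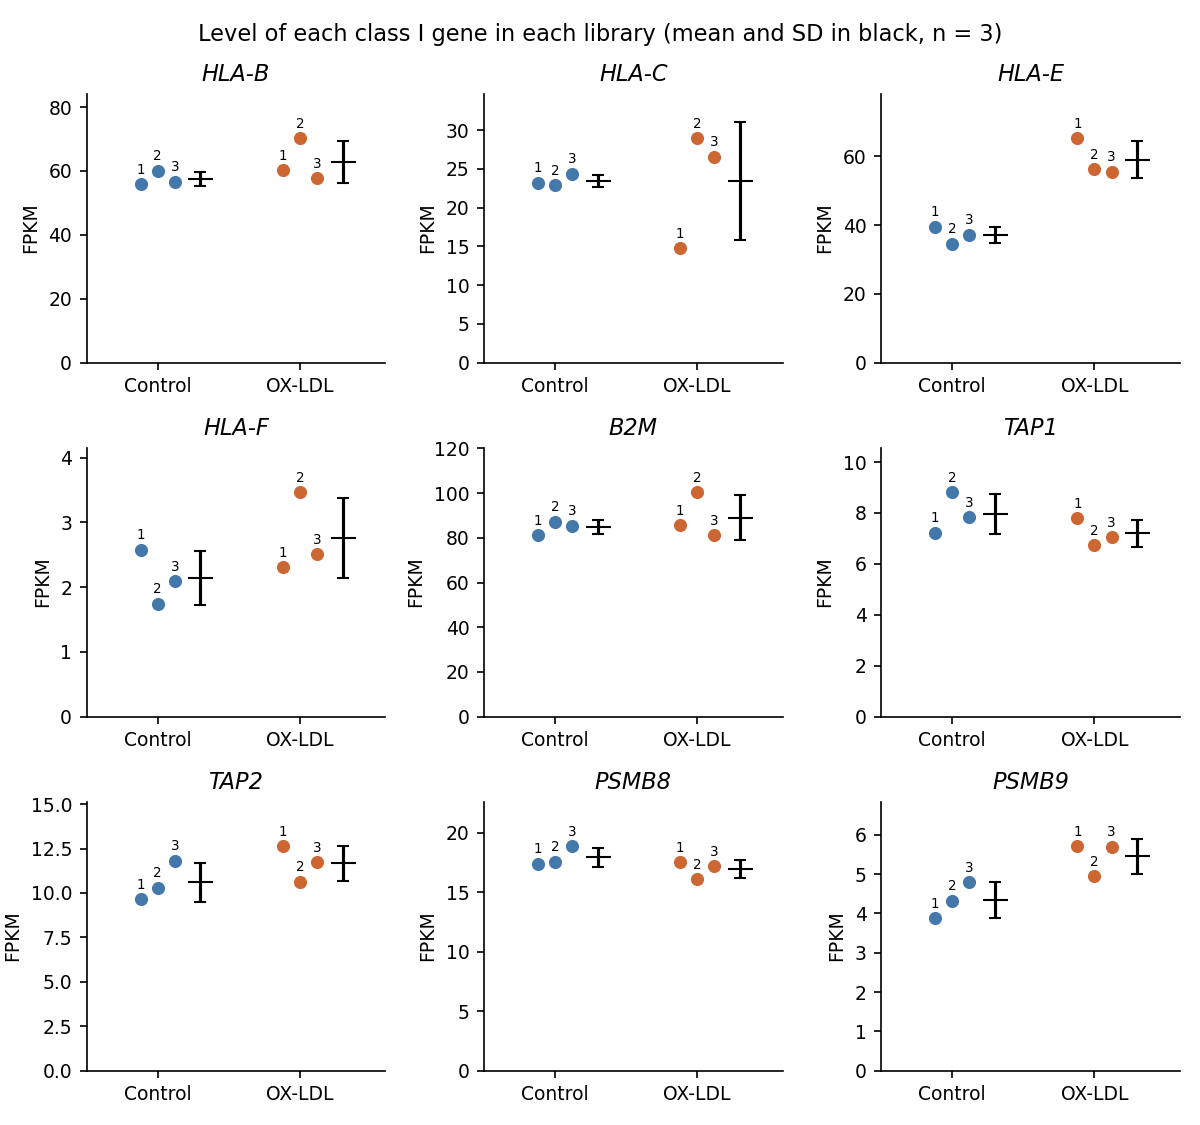
Level of each of the 9 genes in FPKM (vertical axes, linear and starting at 0, scaled for each gene) in the Control and OX-LDL libraries; each point is 1 library with its replicate number, and the bars are the mean and SD (n = 3). HLA-E and PSMB9 are the genes whose groups do not overlap, and OX-LDL 1 stands low for HLA-C at 14.8 FPKM.

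HLA-E encodes a non-classical heavy chain, the ligand of the CD94/NKG2 receptors of natural killer cells. Its level was 39.5, 34.7 and 37.2 FPKM in the Control libraries and 65.3, 56.2 and 55.6 FPKM in the OX-LDL libraries. Each OX-LDL library was above each Control library, with OX-LDL 1 the highest. The log2 fold change was 0.70 (SE 0.09, 95% interval 0.48 to 0.92), a 1.62-fold rise with an adjusted p of 0.00658 (edgeR). The rise passed the threshold in each of the 15 alternative fits, with log2 fold changes from 0.63 to 0.76 and adjusted p-values from 1.25e-07 to 0.0282.

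HLA-B encodes a classical heavy chain, which presents peptides to CD8+ T cells. It stood at 55.9, 60.1 and 56.6 FPKM in Control, against 60.2, 70.2 and 57.8 FPKM in OX-LDL. The groups overlapped, OX-LDL 2 was the highest library, and the change did not pass the test (log2 fold change 0.16, 95% interval -0.05 to 0.37, adjusted p = 0.290, edgeR). The upper end of the interval was a 1.29-fold rise.

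HLA-C encodes the other classical heavy chain measured here, and also a ligand of killer cell immunoglobulin-like receptors. Its Control libraries lay close together at 23.2, 22.9 and 24.4 FPKM, and its OX-LDL libraries lay apart at 14.8, 28.9 and 26.6 FPKM. OX-LDL 1 was below every Control library, while OX-LDL 2 and 3 were above every Control library. The coefficient of variation was 3.28% in Control and 32.4% in OX-LDL, and the log2 fold change of 0.03 (SE 0.24, 95% interval -0.53 to 0.59, adjusted p = 0.950, edgeR) had no settled sign. It was 0.28 without OX-LDL 1 and turned to -0.15 without OX-LDL 2 and -0.07 without OX-LDL 3.

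HLA-F encodes a non-classical heavy chain that also binds receptors of natural killer cells. It was the lowest of the 9 genes, with 2.58, 1.74 and 2.09 FPKM in Control, against 2.31, 3.46 and 2.51 FPKM in OX-LDL. The groups overlapped, since Control 1 was above OX-LDL 1 and 3. A log2 fold change of 0.40 (95% interval -0.12 to 0.91) did not pass the test (adjusted p = 0.275, edgeR), and the upper end of the interval was a 1.88-fold rise.

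With the counts of the 4 heavy chains summed into 1 feature, which does not depend on how reads were split between them, the log2 fold change was 0.34 (SE 0.07, 95% interval 0.18 to 0.50), 1.26-fold higher with an adjusted p of 0.0207 (edgeR). The summed counts were 31213, 31197 and 28648 in Control and 31120, 42323 and 37694 in OX-LDL, before scaling for library size. Their summed level was 120 ± 0.897 FPKM in Control, against 148 ± 9.42 FPKM in OX-LDL (SD, n = 3). The call was lost in 5 of the 6 fits that left out a library (adjusted p 0.0542 to 0.0797, edgeR) and held without OX-LDL 2 (0.0286), with the log2 fold change at 0.28 to 0.36.

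The mix of heavy chains is a description, with no test. HLA-E made up 30.9 ± 1.80% of the summed heavy chain FPKM in Control, against 40.1 ± 5.27% in OX-LDL, and the groups did not overlap. The share of HLA-B was 47.8 ± 2.20% in Control and 42.3 ± 1.82% in OX-LDL, and that of HLA-C 19.5 ± 0.630% and 15.7 ± 4.67%. HLA-F took 1.77 ± 0.335% and 1.85 ± 0.293% (SD, n = 3 for each). The share of HLA-E was highest in OX-LDL 1, at 45.8%, where HLA-C was lowest.

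B2M encodes β2-microglobulin, the light chain that heavy chains need to reach the cell surface. Its level was 81.1, 87.2 and 85.5 FPKM in Control, against 85.7, 100.3 and 81.2 FPKM in OX-LDL. OX-LDL 2 was the highest library, and OX-LDL 1 and 3 lay among the Control libraries. Its log2 fold change was 0.11 (95% interval -0.11 to 0.32, adjusted p = 0.486, edgeR), and the upper end of the interval was a 1.25-fold rise.

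Within a library, HLA-E stood at 0.440 ± 0.0452 of the B2M level in Control and 0.669 ± 0.101 in OX-LDL (SD, n = 3), without overlap. HLA-B stood at 0.680 ± 0.0150 of the B2M level in Control and 0.705 ± 0.00619 in OX-LDL, also without overlap, and between 0.663 and 0.712 in all 6 libraries. These ratios were not tested, and the level of HLA-E alone also did not overlap between the groups.

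**Figure D2:**
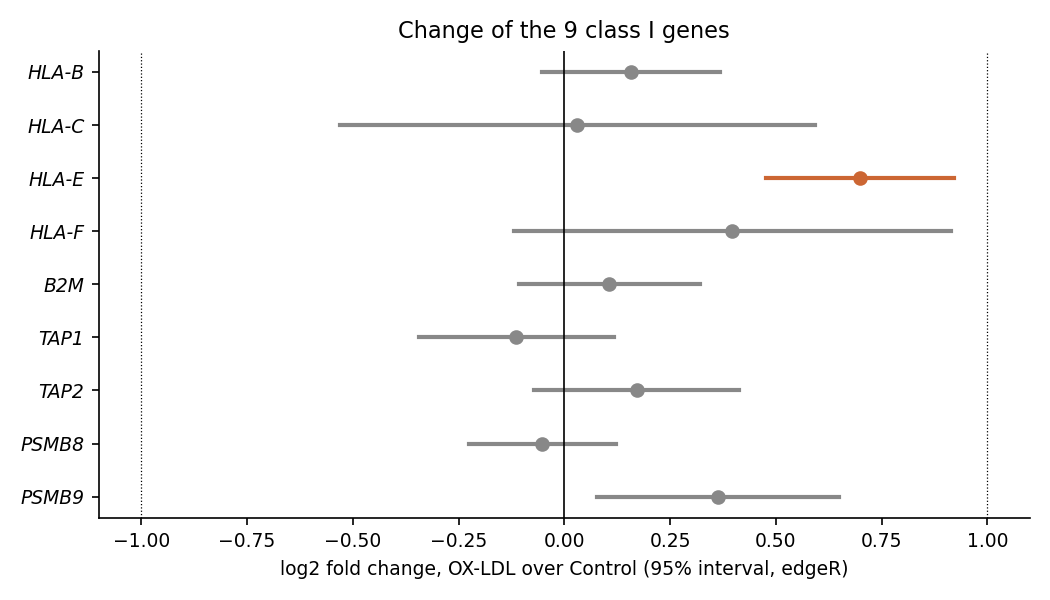
Log2 fold change of OX-LDL over Control for each of the 9 genes (horizontal axis, points) with its 95% interval from the edgeR fit (bars, 3 libraries in each group); the dotted lines mark a 2-fold change. HLA-E, in orange, is at 0.70 and is the gene with an adjusted p-value under 0.05, and the interval of HLA-C, from -0.53 to 0.59, is the widest.

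TAP1 and TAP2 encode the chains of the peptide transporter. TAP1 was at 7.23, 8.81 and 7.83 FPKM in Control, against 7.78, 6.74 and 7.06 FPKM in OX-LDL, and TAP2 was at 9.65, 10.3 and 11.8 FPKM in Control, against 12.6, 10.6 and 11.7 FPKM in OX-LDL. Both genes overlapped between the groups. The log2 fold change of TAP1 was -0.11 (95% interval -0.34 to 0.12, adjusted p = 0.495, edgeR) and that of TAP2 was 0.17 (95% interval -0.07 to 0.41, adjusted p = 0.318, edgeR). TAP1 stood at 0.756 ± 0.0970 of the TAP2 level in Control and 0.618 ± 0.0162 in OX-LDL (SD, n = 3), without overlap and not tested.

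PSMB8 and PSMB9 encode catalytic subunits of the immunoproteasome, the form that takes the place of the standard proteasome under interferon-γ. PSMB8 was at 17.4, 17.6 and 18.9 FPKM in Control, against 17.5, 16.1 and 17.2 FPKM in OX-LDL. The groups overlapped, and the log2 fold change of -0.05 (95% interval -0.23 to 0.12, adjusted p = 0.690, edgeR) had the narrowest interval of the 9 genes.

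PSMB9 was at 3.88, 4.32 and 4.79 FPKM in Control, against 5.70, 4.94 and 5.70 FPKM in OX-LDL. Every OX-LDL library was above every Control library, although OX-LDL 2 exceeded Control 3 by little. PSMB9 had a log2 fold change of 0.36 (SE 0.12, 95% interval 0.08 to 0.65), with an unadjusted p of 0.0198 that missed the threshold over all genes (adjusted p = 0.0914, edgeR). It passed with DESeq2 (adjusted p = 0.0377), which called 11.7% of all genes tested as higher, and in none of the other 14 alternatives, with adjusted p-values up to 0.233. PSMB9 and HLA-E were the 2 of 9 genes that lay higher in OX-LDL with no overlap in FPKM, where 16.8% of all genes tested did so, and 0 of the 9 lay lower with no overlap, against 20.5% of all genes tested.

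The level of PSMB9 relative to PSMB8 was 0.241 ± 0.0161 in Control and 0.322 ± 0.0127 in OX-LDL (SD, n = 3), without overlap, as for PSMB9 alone, and not tested. The PSMB9 entry covers TAP1 and part of PSMB8 on the opposite strand, and PSMB8-AS1, which shares 2360 bases with PSMB9 on its own strand, had a mean of 1.63 FPKM.

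Each immunoproteasome subunit was set against the standard subunit whose place it takes, within each library. PSMB8 over PSMB5, the chymotrypsin-like pair, was 0.497, 0.926 and 0.653 in Control and 0.368, 0.355 and 0.391 in OX-LDL. All 3 OX-LDL libraries were below all 3 Control libraries, with a log2 difference of -0.85 (exact two-sided permutation p = 0.1, the smallest that 3 against 3 libraries allow; 0.3 adjusted over 3 ratios). PSMB5, the denominator, was at 35.0, 19.0 and 28.9 FPKM in Control, against 47.7, 45.3 and 43.9 FPKM in OX-LDL, with a log2 fold change of 0.75 that did not pass the test (adjusted p = 0.0592, edgeR), and Control 2 had the lowest PSMB5 and the highest ratio.

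PSMB9 over PSMB6, the caspase-like pair, was 0.150, 0.153 and 0.185 in Control and 0.175, 0.150 and 0.193 in OX-LDL. The groups overlapped, with a log2 difference of 0.09 (exact permutation p = 0.7, adjusted 0.8). PSMB10 over PSMB7, the trypsin-like pair, was 0.0839 ± 0.0134 in Control and 0.0790 ± 0.00206 in OX-LDL (SD, n = 3), also with overlap (log2 difference -0.07, exact permutation p = 0.8, adjusted 0.8, with the difference at 0.05 without Control 3). PSMB10, the remaining inducible subunit, had a log2 fold change of 0.08 (adjusted p = 0.762, edgeR).

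**Figure D3:**
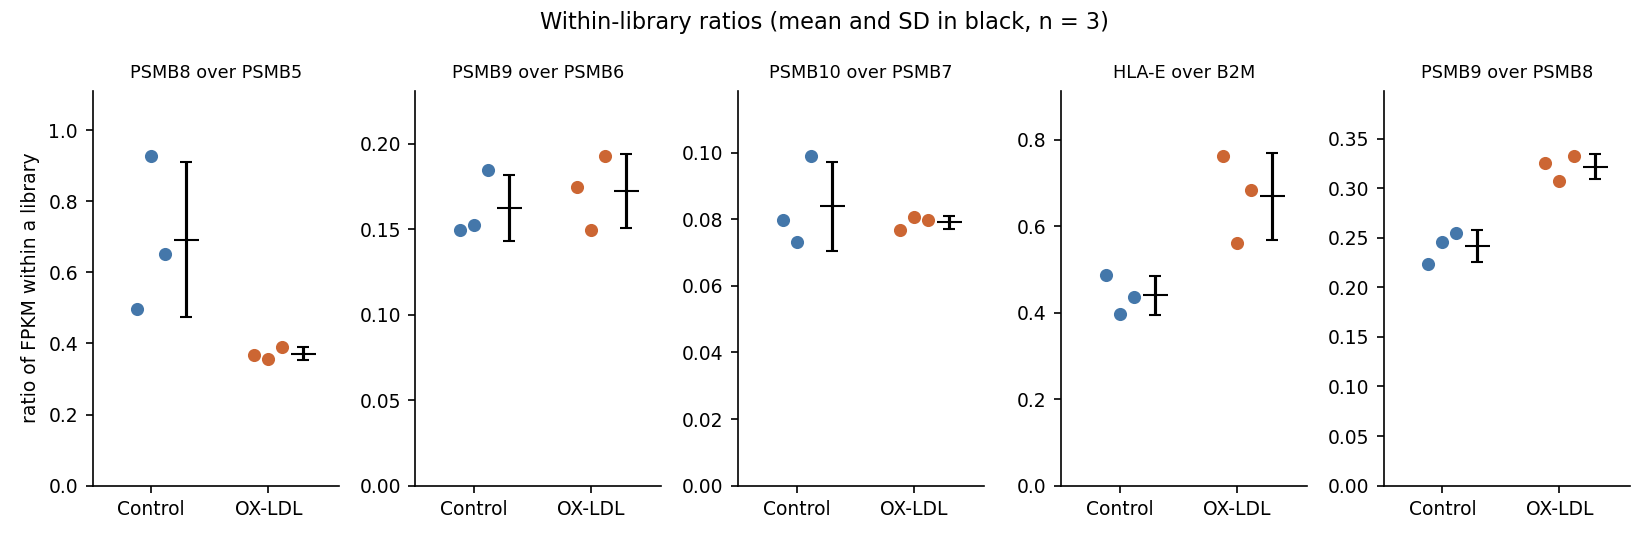
Ratios of FPKM within a library (vertical axes, linear and starting at 0) for the 3 pairs of immunoproteasome and standard subunits, HLA-E over B2M, and PSMB9 over PSMB8; each point is 1 library, in the order of replicates 1 to 3, and the bars are the mean and SD (n = 3). PSMB8 over PSMB5 lies lower in every OX-LDL library, at 0.355 to 0.391, the PSMB9 over PSMB6 and PSMB10 over PSMB7 groups overlap, and the 2 ratios on the right lie higher in every OX-LDL library.

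Over 36 pairs of genes and 6 libraries, Pearson's r of the log2 normalised counts was above 0 for 20 pairs, with a median of 0.05 and a range from -0.95 to 0.96, and after removal of the group means it was above 0 for 15 pairs with a median of -0.24. These values describe libraries that share depth and treatment and carry no test. The mean of the 9 standardised genes followed PSMB9 (r = 0.84) and HLA-E (0.80) most closely and ran against TAP1 (-0.51) and PSMB8 (-0.27). Each of the 9 is part of this mean, so its r includes the gene itself. The 5 other genes most like this mean, among genes whose mean reached 1 FPKM, were DNAJC22 (r = 0.999), DMBX1 (0.996), SH3BGRL (0.996), NSA2 (0.996) and GADD45B (0.993), over 6 libraries. They were picked as the highest r of many genes over few libraries, so values near 1 follow from the search.

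The other genes of the pathway were taken as 8 lists of 73 genes, of which 68 passed the minimum level. Of these, 15 rose, 4 fell and 49 did not pass the test, with a log2 fold change above 0 for 50 and a median of 0.21. Over all genes tested, 7.91% rose, 7.42% fell and 49.7% had a log2 fold change above 0, and each list below is a description beside those shares. In OX-LDL, 6 standard proteasome subunits, the chaperones CALR and PDIA3 and the stress ligands MICA and MICB were among the genes that rose, while IRF1, NFKB1, ULBP1 and HLA-DMB fell. Of the 19 calls, 10 held in all 6 fits that left out a library.

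PSMB8 and PSMB9 are built into the 20S core of the proteasome. Of the 14 standard subunits of the 20S core, 6 rose, 0 fell and 13 lay higher in OX-LDL without overlap, with a median log2 fold change of 0.32. Of all genes tested, 7.91% rose and 16.8% lay higher without overlap. Their summed level was 533 to 560 FPKM in Control, against 684 to 709 FPKM in OX-LDL. PSMA5 was at 15.9, 16.3 and 16.7 FPKM in Control, against 27.0, 26.2 and 25.9 FPKM in OX-LDL, and rose by 0.73 on the log2 scale (adjusted p = 0.00168, edgeR). The structural subunits PSMB1 (0.56, adjusted p = 0.00516, edgeR) and PSMA1 (0.53, adjusted p = 0.00601, edgeR) also rose in every fit that left out a library. PSMB2 rose by 1.07 (adjusted p = 0.0144, edgeR), a call lost without OX-LDL 1 or OX-LDL 3. The standard catalytic subunits PSMB6 (0.28, adjusted p = 0.0587, edgeR) and PSMB7 (0.16, adjusted p = 0.145, edgeR) did not pass the test.

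Of 5 genes for proteasome activators and maturation, 1 rose. It was POMP, the chaperone of proteasome assembly, at 47.5, 43.6 and 47.9 FPKM in Control, against 69.2, 67.0 and 69.6 FPKM in OX-LDL (log2 fold change 0.60, adjusted p = 0.00495, edgeR). The interferon-inducible activator subunits PSME1 (0.08, adjusted p = 0.676, edgeR) and PSME2 (0.30, adjusted p = 0.111, edgeR) did not pass the test.

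Peptide loading and trimming held 11 genes, of which 3 rose and 0 fell, with a median log2 fold change of 0.33. Calreticulin (CALR), a chaperone of the loading complex, was at 318, 282 and 302 FPKM in Control, against 440, 420 and 443 FPKM in OX-LDL (0.56, adjusted p = 0.00554, edgeR). PDIA3, the disulphide isomerase of the same complex, was at 102, 78.2 and 91.2 FPKM in Control, against 151, 148 and 144 FPKM in OX-LDL (0.74, adjusted p = 0.00799, edgeR). Both also serve other proteins of the endoplasmic reticulum, as does SEC13 (0.49, adjusted p = 0.0193, edgeR), a coat protein of vesicles that leave it, whose call was lost in 4 of the 6 fits that left out a library. Tapasin (TAPBP), which is particular to class I loading, had 0.18 (adjusted p = 0.162, edgeR), and the trimming peptidase ERAP1 had 0.25 (adjusted p = 0.0993, edgeR).

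**Figure D4:**
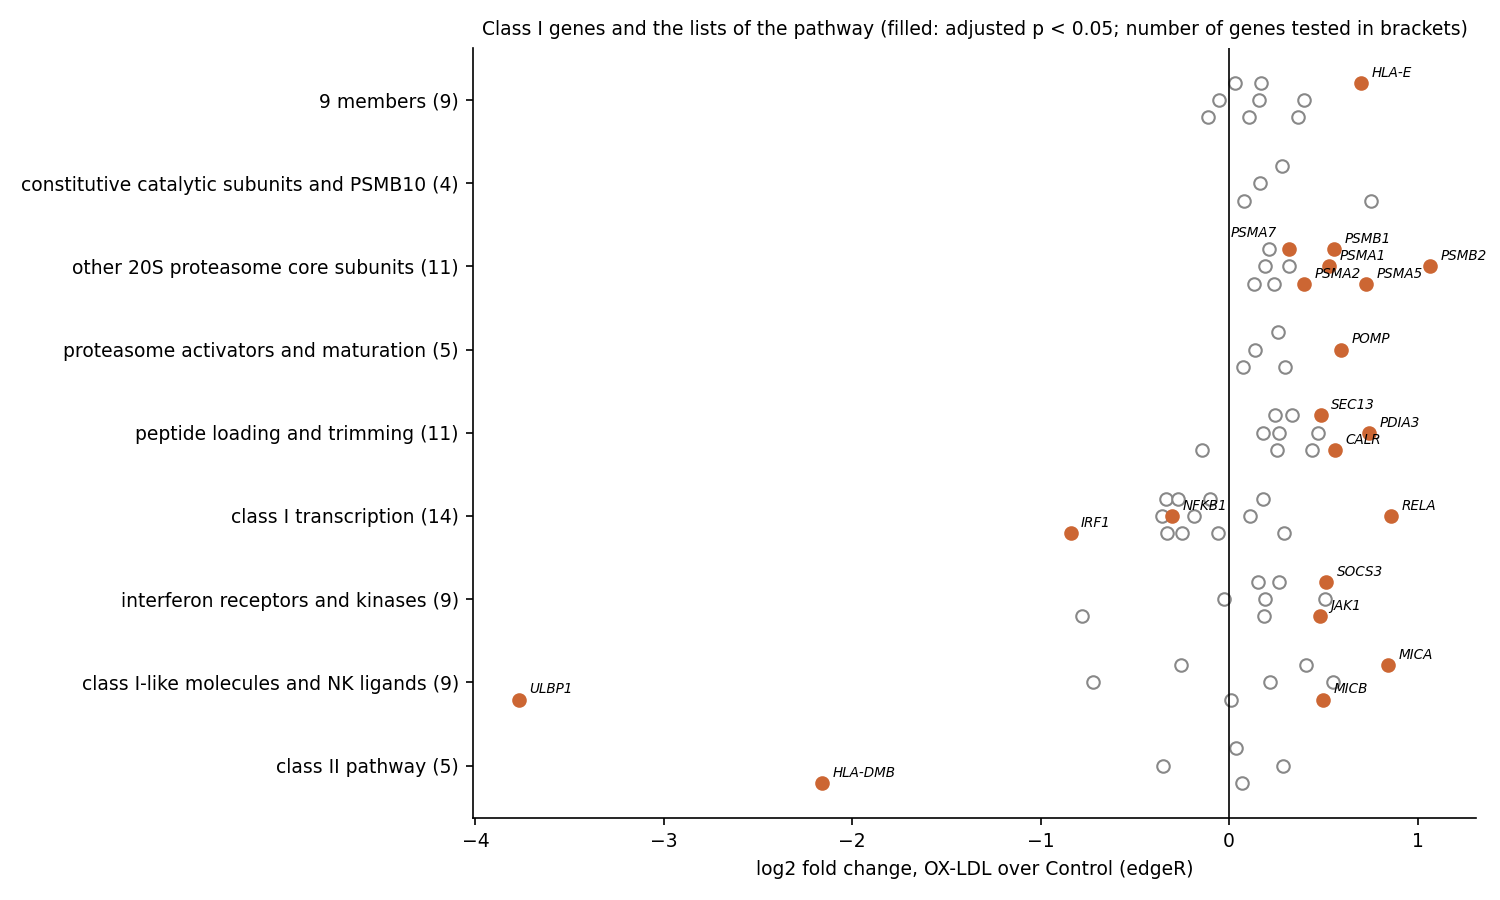
Log2 fold change of OX-LDL over Control (horizontal axis, edgeR) of the 9 genes and of the genes tested in each of 8 lists of the pathway (rows, number tested in brackets); each point is 1 gene, points are spread vertically for legibility, and filled named points have an adjusted p-value under 0.05. HLA-E is the filled gene of the 9, and the proteasome and loading lists lie mostly to the right of 0, with medians from 0.22 to 0.33.

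Of 14 regulators of class I transcription, 1 rose and 2 fell, with a median log2 fold change of -0.22. Of all genes tested, 7.91% rose and 7.42% fell. IRF1, an interferon-inducible factor known to bind the core printed above, fell and was at 3.07, 3.66 and 4.82 FPKM in Control, against 2.15, 2.20 and 1.95 FPKM in OX-LDL (-0.84, adjusted p = 0.0205, edgeR). The IRF1 call was lost without Control 2, OX-LDL 1 or OX-LDL 3. NLRC5, the coactivator particular to class I genes, had a log2 fold change of -0.19 (adjusted p = 0.437, edgeR). Of the NF-κB subunits, RELA rose (0.86, adjusted p = 0.0371, edgeR) and NFKB1 fell (-0.30, adjusted p = 0.0366, edgeR). The RELA call was lost in 4 of the 6 fits that left out a library, and the NFKB1 call in all 6.

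Of 9 interferon receptors, kinases and inhibitors, 2 rose. The kinase JAK1 rose by 0.48 on the log2 scale (adjusted p = 0.0112, edgeR), and SOCS3, an inhibitor of cytokine signalling, by 0.51 (adjusted p = 0.0219, edgeR, lost in 4 of 6 fits that left out a library).

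Class I-like molecules and ligands of natural killer cells moved both ways, with 2 of 9 higher and 1 lower. MICA, a stress ligand of the NKG2D receptor, was at 12.8, 10.8 and 10.9 FPKM in Control, against 21.3, 18.9 and 20.5 FPKM in OX-LDL (0.84, adjusted p = 0.00489, edgeR). MICB, a close relative, was at 21.5, 20.5 and 18.3 FPKM in Control, against 30.4, 25.1 and 27.99 FPKM in OX-LDL (0.50, adjusted p = 0.0209, edgeR, lost in 4 of 6 fits that left out a library). ULBP1, another ligand of the same receptor, fell from 3.78, 4.51 and 4.40 FPKM to 0.444, 0.0631 and 0.400 FPKM (-3.77, SE 0.62, adjusted p = 0.0117, edgeR). Its deposited counts were 1067, 1293 and 1151 in Control, against 106, 19 and 117 in OX-LDL. At about 4 counts per read pair, the size of this fall rests on few pairs in OX-LDL. MICA and MICB resemble each other in sequence, so reads could be split between them.

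Of the 5 class II pathway genes tested, 1 fell and 0 rose. HLA-DMB, a chain of the molecule that loads peptides onto class II, was at 99.9, 95.9 and 71.9 FPKM in Control, against 17.3, 23.3 and 18.0 FPKM in OX-LDL (-2.16, SE 0.17, adjusted p = 0.00149, edgeR). Its groups did not overlap, and the call held in every fit that left out a library. HLA-DMA, the gene of the other chain of that molecule, did not pass the test (log2 fold change 0.07, adjusted p = 0.901, edgeR). HLA-DMA was at 5.32, 3.63 and 5.57 FPKM in Control, against 6.74, 4.89 and 3.32 FPKM in OX-LDL. CD74, the invariant chain of class II, had a log2 fold change of 0.04 (adjusted p = 0.813, edgeR), and CIITA, the class II coactivator, was under the minimum level of 0.1 FPKM.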

How the data were processed

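The 6 RNA-seq libraries were grouped by their labels as Control (untreated) and OX-LDL (25 μg/ml for 48 h). The libraries were strand-specific, and per the labels the authors used cutadapt 1.9, HISAT2 2.0.4, StringTie 1.3.4d, edgeR, DESeq2 and GRCh38. The authors deposited 1 table with an estimated count, not scaled for library size, and an FPKM value, scaled by the authors per kilobase and library size, for each gene. A count of 0 is listed at 0.0001 FPKM. The counts are whole numbers and were used as deposited. Coordinates equalled those of GENCODE release 29 for 81.2% of 58552 identifiers.

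edgeR 4.0.16 (R 4.3.3, TMM factors, glmQLFit and glmQLFTest, group as the only term) was fitted over the 19510 genes whose mean reached 0.1 FPKM, with Benjamini-Hochberg adjustment over all of them. SE and intervals come from this fit. The planned ratios of immunoproteasome to standard subunits were compared by an exact two-sided permutation test. The other ratios were not part of that plan and are descriptions without a test. The chi-square per gene between same-group libraries was 15.7 to 27.3, so none was deposited more than once. The fits were tested on simulated data. Alternatives were DESeq2 1.42.0, limma 3.58.1 on log2(FPKM + 0.1) and log2(FPKM + 1), RLE and upper quartile factors, a minimum of 1 FPKM, no minimum, counts divided by 4, a replicate block and leaving out each library.

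The 9 genes and the gene lists were chosen with earlier results of these data known, and 1 gene of the lists is not reported here. Named in the text are the 9 genes, from each list up to 4 genes by smallest p, or all called ones where 4 or fewer were called, the subunits in ratios, the 5 genes most like the mean of the 9, and some of the genes that overlap the 9. PSME1, PSME2, TAPBP, ERAP1, NLRC5, HLA-DMA, CD74, CIITA, CD68, PTPRC and LRP2 were named for their role after their values were seen. Promoters came from RefSeq (GRCh38.p14).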

Additional observations from a re-analysis of the deposited data

How the results depend on the processing

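HLA-E rose in each of the 15 alternatives. Of the 135 alternative values of the 9 genes, 129 kept their direction and their side of the threshold. The log2 fold change of HLA-C turned below 0 in 5, with -0.0624 by limma on log2(FPKM + 0.1), -0.0575 by limma on log2(FPKM + 1), -0.0279 with the replicate block, and -0.15 to 0.28 when libraries were left out in turn. DESeq2 called 2 of the 9 genes, PSMB9 besides HLA-E, and 4430 genes in all. The summed heavy chains had 0.33 with the replicate block (adjusted p = 0.0673, edgeR) and 0.28 to 0.36 without 1 library. The cause was not tested for these.

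Over all genes, edgeR called 2991, against 1636 with the replicate block and 1161 to 2943 without 1 library, the lowest without Control 2. The pathway lists had 19 calls, against 29 with DESeq2 and 11 to 22 without 1 library, the lowest without Control 2, OX-LDL 1 or OX-LDL 3. The cause of these differences in calls was not tested. Deviations of same-numbered libraries from their group means correlated at -0.04, -0.003 and 0.04, and not every library correlated best with its own number. No pairing by number was seen, but these values cannot show that the libraries were unpaired. No ratio could pass the threshold at this number of libraries. PSMB10 over PSMB7 had a log2 difference of -0.17 to 0.05 without 1 library, above 0 without Control 3, and the other tested ratios kept their direction. HLA-F and PSMB9 had the fewest read pairs of the 9 genes.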
